A study of Mus musculus with 12 samples.

Results

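The colony-stimulating factor axis was described here by 7 genes of the 31054 in the deposited gene list, taken by symbol: the ligands Csf1 and Il34 and the receptor genes Csf1r, Csf2ra, Csf2rb, Csf2rb2 and Csf3r. Their transcripts were counted as unique molecular identifiers (UMIs, one per captured RNA molecule) in 12 single-cell libraries, and each level is given in CPM, the summed UMIs of a gene scaled to a fixed library total. Barcodes entered these sums if they had 200 genes or more and no more than 10% of UMIs from mitochondrial genes. Of these libraries, 8 came from the brains of 4 C57BL/6J mice that had received busulfan, a myeloablative drug, and then lineage-negative hematopoietic stem/progenitor cells (HSPCs) from male donors that carried a lentiviral vector for GFP (LVV.GFP). A female and a male mouse were dosed intravenously (IV), and a female and a male intracerebroventricularly (ICV). Every recipient also received non-transduced bone marrow intravenously 5 days later. From each brain, CD45+ CD11b+ CX3CR1+ cells were sorted into GFP+ cells, called microglia-like cells (MLCs), and GFP- cells, called endogenous microglia. The GFP- sort can therefore hold donor cells without the vector, and CX3CR1 chose the cells of both sorts. Treated mice are labelled 22 to 28 weeks old, whereas the series text places the sort about a year after dosing. The other 4 libraries came from 1 treatment-naive C57BL/6J mouse, labelled 8 to 12 weeks old, and hold PBMCs (mononuclear cells of the peripheral blood), microglia of the same gate, and ACSA2+ CD45- brain cells split by Thy1 into neurons (Thy1+) and astrocytes (Thy1-). Each naive population is 1 library, so its values carry counting intervals and no test.

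The treated libraries held 2266 to 4555 cells and 4970758 to 16514669 UMIs each. Median UMIs per cell were 842 to 1308 in 7 of them and 3499 in the GFP+ library of the IV female. The naive libraries held 341 to 1274 cells, with a median of 425 UMIs in the microglia and 3395 to 6937 in the others. A check against marker lists showed summed microglia markers of 10800 to 14876 CPM in GFP- and 5366 to 10142 CPM in GFP+ libraries, and summed markers of CNS-associated macrophages (CAMs) of 881 to 1591 and 2021 to 2669 CPM. The neuron library did not match its label: 549 of its 575 cells carried at least 3 oligodendrocyte markers and held all of its Csf1 UMIs, and 3 cells carried at least 3 neuron markers. It is called the neuron-sort library from here on.

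Csf1 and Il34 are the known ligands of Csf1r, the receptor tyrosine kinase on which microglia and most tissue macrophages depend for survival. Csf2ra is the ligand-binding chain of the receptor for GM-CSF, which signals through the common beta chain Csf2rb, a chain that the receptors for interleukin 3 and interleukin 5 also use. Mice carry a second beta chain, Csf2rb2, that serves interleukin 3 alone. Csf3r is the receptor for G-CSF and is best known from neutrophils and their precursors.

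GFP+ cells held far less Csf1 than GFP- cells of the same brains, and less Csf3r and Csf2rb2. The mean CPM of Csf2ra and of Csf2rb was similar in both sorts, but for both genes GFP+ libraries lay on either side of the GFP- range. Of the 6 members that passed the filter on low counts, 3 were called different at an adjusted p under 0.05 by edgeR's quasi-likelihood test with Benjamini-Hochberg adjustment, all 3 lower in GFP+. Over all 11756 genes tested, 32.5% were called, 16.6% higher and 15.9% lower, so the count of members called is not far from what genes in general gave. In CPM, the 4 GFP+ and the 4 GFP- libraries did not overlap for 4 members (Csf1, Csf1r, Csf2rb2 and Csf3r, all lower in GFP+), where 38.9% of all genes tested did not overlap and 32.6% were lower and 6.29% higher in GFP+. The test scales libraries with TMM factors, which shifted log2 fold changes between the sorts by 0.28 on average toward GFP+ relative to plain CPM. The shift was larger in the IV than in the ICV mice. Csf1 went from -3.66 to -3.22 in the IV male and from -2.98 to -2.88 in the ICV female. Without these factors, 770 genes were called higher and 3803 lower, in place of 1951 and 1869. A level here is summed over a library, so fewer cells with a transcript and less transcript per cell cannot be told apart in it.

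**Figure D1:**
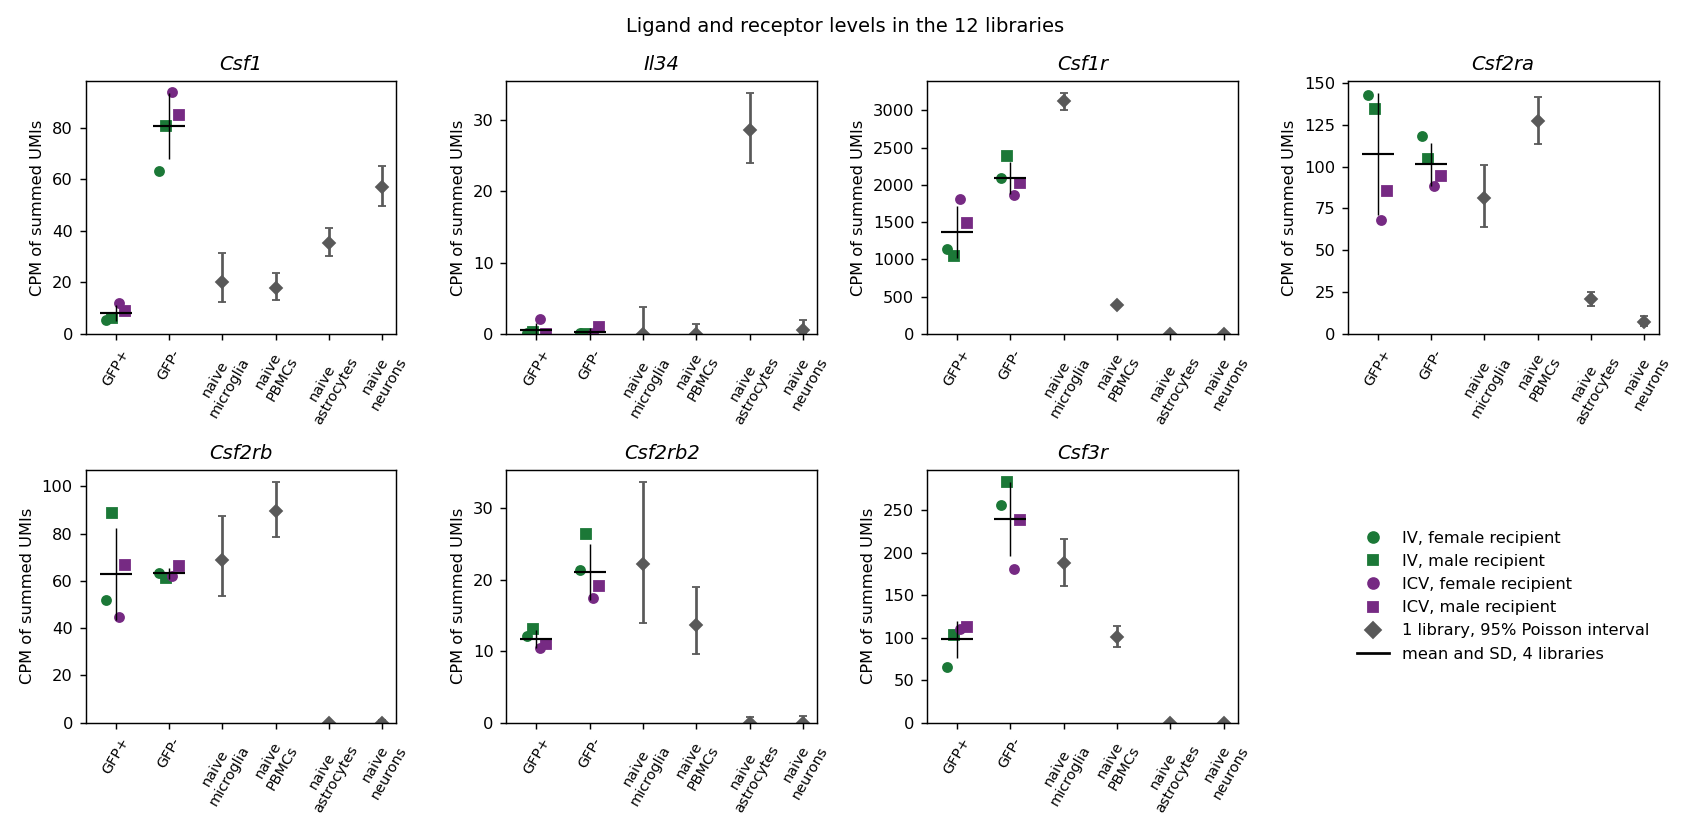
Level of the 7 members in CPM of summed UMIs (linear axes from 0) in the 12 libraries. Coloured points are single treated libraries with the mean and SD of 4 libraries per sort, and grey diamonds are single naive libraries with a 95% Poisson interval. Csf1 sits at 5.27 to 11.9 CPM in GFP+ and 63.2 to 93.6 CPM in GFP- libraries, and Il34 stands out in the naive astrocyte library alone.

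Csf1 (ENSMUSG00000014599, chr3:107741048-107760469, minus strand, GRCm38), the macrophage growth factor M-CSF, was at 63.2 CPM in the GFP- library of the IV female, 80.8 in that of the IV male, 93.6 in that of the ICV female and 84.9 in that of the ICV male. In the GFP+ libraries of the same mice it was at 5.27, 6.38, 11.9 and 8.99 CPM. The lowest GFP- library thus held a higher level than the highest GFP+ library, and the ICV mice were the higher of the pairs in both sorts. The means were 80.6 CPM ± 12.8 in GFP- and 8.13 CPM ± 2.95 in GFP+ (SD, n = 4), a 9.91-fold difference. On the TMM scale Csf1 fell by 3.06 on the log2 scale (SE 0.23, edgeR adjusted p = 0.000126), and the difference was -3.22 in both IV mice, -2.88 in the ICV female and -3.01 in the ICV male. It was called in all 22 alternative settings run, with log2 fold changes from -3.77 to -2.91. After thinning every cell to 500 UMIs, 3.33% to 4.99% of GFP- cells and 0.239% to 0.801% of GFP+ cells held a Csf1 UMI, again without overlap. For such shares the background is that 17.4% of the genes tested did not overlap between the sorts, 12.3% lower and 5.06% higher in GFP+. Csf1, Csf1r, Csf2rb2 and Csf3r were the members whose shares did not overlap.

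The naive libraries placed Csf1 between the sorts. Naive microglia held 20.2 CPM (95% Poisson interval 12.4 to 31.3, 20 UMIs), PBMCs 17.9 (13.1 to 23.8), astrocytes 35.4 (30.3 to 41.1) and the neuron-sort library 57.0 (49.6 to 65.3). All 4 values and their lower bounds lie above the level of every GFP+ library. All 4 values lie below every GFP- library, with the interval of the neuron-sort library reaching into the GFP- range. The order depended on the filter on barcodes. With 500 genes or more and no more than 5% mitochondrial UMIs, Csf1 was at 90.6 CPM in the neuron-sort library. This value came from 14 UMIs in all over the 23 cells left and lay within the GFP- range. PBMCs were at 32.4 CPM under that filter, and naive microglia at 15.0 CPM from 6 UMIs. The place of naive microglia above the GFP+ libraries is therefore uncertain under it. In the astrocyte library Csf1 was at 92.1 CPM (70.1 to 119) in the 89 cells with at least 3 oligodendrocyte markers and at 35.3 (29.9 to 41.3) in the 1032 with at least 3 astrocyte markers. These lists overlap in cells. The 134 cells with a Csf1 UMI there were led over the other cells by the oligodendrocyte genes Klk6, Mag and Ermn, each raised 7.18- to 14.3-fold after 20 CPM were added to both sides, and they also held more UMIs (median 5449 against 3254). In the neuron-sort library all 212 Csf1 UMIs came from oligodendrocyte-marker cells, and the 141 cells with one were led by Ifi27l2a (7.15-fold) and Klk6 (4.93-fold). These leading genes were chosen by their fold after the values were seen. In the PBMCs, 38 of 47 Csf1 UMIs came from 4 cells that carried at least 3 markers of no list other than microglia, CAMs or monocytes, and neutrophil-marker cells held 189 CPM (81.7 to 373, 8 UMIs in 24 cells).

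Il34 (ENSMUSG00000031750, chr8:110741829-110805924, minus strand, GRCm38, crossed by the antisense genes Gm15894 and Gm15895) was found mainly in the astrocyte library, at 28.5 CPM (23.9 to 33.7, 137 UMIs in 72 cells). The neuron-sort library held 2 UMIs in 1 cell, and naive microglia and PBMCs held none, which allows up to 3.04 and 1.14 CPM by the limit of 3 counts. Hardly any cells of the neuron-sort library carried neuron markers, so the level of Il34 in neurons was not measured here. Treated libraries held 0, 0.123, 0.201 and 1.03 CPM in GFP- and 0, 0.182, 0.304 and 2.04 CPM in GFP+. The highest of these, the GFP+ library of the ICV female, rested on 18 UMIs in 5 cells, and the highest GFP- library, that of the ICV male, on 8 UMIs in 3 cells. Il34 therefore did not pass the filter on low counts. Without that filter it had a log2 fold change of 0.96 between the sorts (SE 1.15, edgeR adjusted p = 0.590), and it was called in none of the 7 comparisons.

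Within the astrocyte library Il34 was concentrated in few cells. Of its 137 UMIs, 80 came from 74 cells that carried at least 3 markers of no list other than microglia, CAMs or monocytes, at 377 CPM (299 to 469), against 11.4 CPM (8.50 to 15.1) in the astrocyte-marker cells. Of the 74 cells, 40 held an Il34 UMI. The 72 Il34-positive cells were led by Vtn (18809 CPM against 492 in the other cells), Rgs5 (4293 against 124), Ndufa4l2 (1552 against 35.8), Igfbp7 (3223 against 102), Higd1b and Abcc9, genes known from pericytes and other mural cells of brain vessels. No mural cell list was among the markers checked, so the cells are given by these genes and not by a name. Their median depth (2974 UMIs) was below that of the other cells (3452). When all deposited barcodes of the library were kept, Il34 was at 15.7 CPM with 138 UMIs, so 1 further UMI came from the barcodes left out, and under the stricter filter on barcodes (500 genes or more, no more than 5% mitochondrial) it was at 63.0 CPM with 96 UMIs.

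Csf1r (ENSMUSG00000024621, chr18:61100598-61132149, plus strand, GRCm38, partly overlapped by Hmgxb3 on the other strand) was at 2097, 2387, 1869 and 2029 CPM in the GFP- libraries of the IV female, IV male, ICV female and ICV male, and at 1137, 1040, 1811 and 1488 CPM in the GFP+ libraries. The sorts did not overlap, but the highest GFP+ library (1811) lay close to the lowest GFP- library (1869), and these came from the same ICV female. The means were 2096 CPM ± 216 and 1369 CPM ± 352 (SD, n = 4), a 1.53-fold difference. On the TMM scale the log2 fold change was -0.34 (SE 0.16, edgeR adjusted p = 0.122), which did not pass the test. By mouse it was -0.52 and -0.76 in the IV female and male, 0.05 in the ICV female and -0.22 in the ICV male. Csf1r passed in 4 of 22 alternative settings: the IV mice alone (-0.66, adjusted p = 0.0254), cells thinned to 500 UMIs (-0.60, 0.0375), library totals without scaling factors (-0.62, 0.0245) and without the GFP+ library of the ICV female (-0.47, 0.0417).

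The share of cells with a Csf1r UMI at 500 UMIs was 64.5% to 71.5% in GFP- and 43.6% to 56.1% in GFP+ libraries. Naive microglia were at 78.2% (95% exact binomial interval 74.3% to 81.8%) and 3118 CPM (3008 to 3230), both above the GFP- range. Their place depended on depth. This library, unlike the treated ones, holds barcodes under 500 UMIs, which entered its CPM but not its shares. Its cells under 1000 UMIs held 4106 CPM of Csf1r and its 152 deeper cells 2109 CPM, within the 1721 to 2185 CPM of deeper GFP- cells. At 1000 UMIs its share was 84.2%, within the 80.9% to 87.3% of GFP-, and the stricter filter on barcodes (500 genes or more, no more than 5% mitochondrial) put it at 1995 CPM. No Csf1r UMI was seen in 1146 astrocytes or 482 neuron-sort cells at 500 UMIs, which allows shares of up to 0.262% and 0.622% of cells with a UMI. Without thinning, the astrocyte library held 5 Csf1r UMIs (1.04 CPM, 0.338 to 2.43) and the neuron-sort library 0. The level of free Csf1r RNA in the myeloid libraries was not tested. PBMCs were at 392 CPM (368 to 417), with 480 CPM in monocyte-marker cells and 103 CPM in B cell-marker cells. Csf1r in treated and naive myeloid brain libraries was thus above its level in blood monocyte-marker cells, with the naive values from 1 library each.

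Csf2ra (ENSMUSG00000059326, chr19:61223957-61228429, minus strand, GRCm38) was at 118, 105, 88.6 and 94.6 CPM in the GFP- libraries of the IV female, IV male, ICV female and ICV male. In the GFP+ libraries it was at 143, 134, 68.0 and 85.3 CPM. The GFP+ values of the IV mice lay above all 4 GFP- libraries and those of the ICV mice below them. The means were 101 CPM ± 12.9 in GFP- and 108 CPM ± 36.6 in GFP+ (SD, n = 4), and the log2 fold change was 0.39 (SE 0.25, edgeR adjusted p = 0.2503). By mouse it was 0.64 and 0.80 in the IV female and male, -0.28 in the ICV female and 0.08 in the ICV male. Among 22 alternatives it passed with the IV mice alone (0.70, adjusted p = 0.0252), and it was 0.09 without scaling factors and -0.09 in the ICV mice alone. In the naive libraries, PBMCs held 127 CPM of Csf2ra (114 to 141), microglia 81.0 (64.2 to 101), astrocytes 20.8 (16.9 to 25.3) and the neuron-sort library 7.26 (4.79 to 10.6). In the astrocyte library, 99 of its 100 UMIs came from astrocyte-marker cells, and the 92 cells with one were led by Mybpc1 (3.06-fold), Abi3bp (2.67-fold) and Npy (2.22-fold), again chosen by fold. Csf2rb had no UMI in either neural library.

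Csf2rb (ENSMUSG00000071713, chr15:78325752-78353847, plus strand, GRCm38), the common beta chain, was at 63.4, 61.1, 61.9 and 66.2 CPM in the GFP- libraries in the same order of mice and at 52.0, 88.8, 44.8 and 66.6 CPM in the GFP+ libraries. The GFP- libraries lay close together, whereas the GFP+ libraries spread on both sides of them. The means were 63.2 CPM ± 2.23 and 63.0 CPM ± 19.4 (SD, n = 4). The log2 fold change was 0.29 (SE 0.21, edgeR adjusted p = 0.318), and none of 22 alternatives passed. Naive microglia held 68.8 CPM (53.4 to 87.3) and PBMCs 89.7 (78.6 to 102).

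Csf2rb2 (ENSMUSG00000071714, chr15:78282507-78305721, minus strand, GRCm38), the beta chain of the interleukin 3 receptor alone, lies 20030 bases from Csf2rb. It was at 21.3, 26.4, 17.4 and 19.2 CPM in the GFP- libraries of the IV female, IV male, ICV female and ICV male, and at 12.2, 13.2, 10.4 and 11.004 CPM in the GFP+ libraries. The sorts did not overlap, and the difference had a similar size in every mouse, from -0.64 to -0.44 on the TMM log2 scale. The means were 21.1 CPM ± 3.88 and 11.7 CPM ± 1.23 (SD, n = 4), a 1.80-fold difference. Csf2rb2 fell by 0.55 on the log2 scale (SE 0.15, edgeR adjusted p = 0.0213). It was called in 19 of 22 alternatives and not without the GFP- library of the IV male (adjusted p = 0.0674), in the IV mice alone (0.0922) or in the ICV mice alone (0.0586). Transcripts of Csf2rb2 and Csf2rb shared 92.9% of 4390 aligned bases, and 82.5% of 439 aligned bases within their last 500, where 3′ libraries are read, so the split of counts between both genes is uncertain. Naive microglia held 22.3 CPM (14.0 to 33.7) and PBMCs 13.7 (9.58 to 18.9).

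Csf3r (ENSMUSG00000028859, chr4:126024550-126044440, plus strand, GRCm38) was at 256, 283, 180 and 238 CPM in the GFP- libraries of the IV female, IV male, ICV female and ICV male, and at 65.9, 103, 111 and 113 CPM in the GFP+ libraries. The sorts did not overlap, and the IV female had both the lowest GFP+ level and the largest difference of the 4 mice. The means were 239 CPM ± 43.5 and 98.0 CPM ± 21.8 (SD, n = 4), a 2.44-fold difference. Csf3r fell by 1.002 on the log2 scale (SE 0.17, edgeR adjusted p = 0.00389), with -1.59, -1.02, -0.61 and -0.85 in the IV female, IV male, ICV female and ICV male. Of 22 alternatives, 21 kept the call, and it was lost with cells thinned to 500 UMIs (-0.56, adjusted p = 0.0699). Naive microglia held 187 CPM (161 to 216), within the GFP- range, and PBMCs 101 CPM (89.3 to 114), or 152 CPM under the stricter filter on barcodes.

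**Figure D2:**
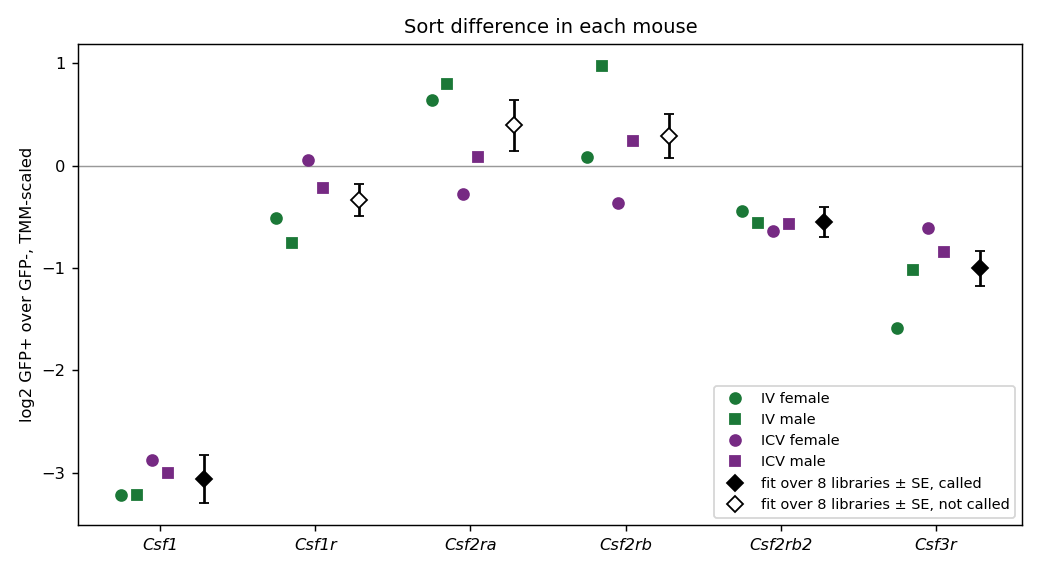
Difference between GFP+ and GFP- cells of each mouse for the 6 members tested (vertical axis, log2 of the TMM-scaled ratio; coloured points, 1 per mouse), beside the fitted log2 fold change with its SE over 8 libraries (diamonds, filled where called). Csf1 lies between -3.22 and -2.88 in every mouse, Csf2rb2 and Csf3r are below 0 in every mouse, and Csf1r, Csf2ra and Csf2rb have mice on both sides of 0.

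RefSeq promoter windows (build GRCm38.p6) were at hand for 4 members, Csf1, Csf2ra, Csf2rb2 and Csf3r. Those of the 3 members called lower in GFP+ are printed 5′ to 3′ along the gene's strand, since these genes moved together, and stop where the GENCODE gene begins. Capitals mark a match to GAGGAA, read TTCCTC on the other strand, the core of the sites of PU.1, the master factor of myeloid cells.
Csf1 (chr3:107760470-107760719, minus strand): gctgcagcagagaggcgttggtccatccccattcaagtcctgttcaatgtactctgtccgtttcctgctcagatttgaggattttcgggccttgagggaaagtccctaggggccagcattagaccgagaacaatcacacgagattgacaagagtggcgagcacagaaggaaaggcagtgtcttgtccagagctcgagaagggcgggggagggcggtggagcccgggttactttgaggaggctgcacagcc
Csf2rb2 (chr15:78305722-78305971, minus strand): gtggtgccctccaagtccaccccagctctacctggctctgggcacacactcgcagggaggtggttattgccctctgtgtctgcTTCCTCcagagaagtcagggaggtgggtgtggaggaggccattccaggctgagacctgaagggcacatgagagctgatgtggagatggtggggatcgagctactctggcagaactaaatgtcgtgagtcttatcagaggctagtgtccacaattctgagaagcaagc
Csf3r (chr4:126024409-126024549, plus strand): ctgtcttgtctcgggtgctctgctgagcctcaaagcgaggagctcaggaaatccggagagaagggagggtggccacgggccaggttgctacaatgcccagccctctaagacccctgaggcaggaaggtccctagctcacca
The match in Csf2rb2 begins 167 bases before the start. The window of Csf3r holds 1 match, 86 bases before the RefSeq start and inside the GENCODE gene, outside the stretch printed. The 250 bases of Csf2ra, not called between the sorts, hold 2 matches, 14 and 8 bases before the start, and those of Csf1 hold none. Of 32851 promoter windows of the same 250 bases, 23.3% hold such a match. Neither TTGCNNAA, a core of C/EBP sites (9.56% of all windows), nor TGANTCA, a core of AP-1 sites (6.75%), was found in the 4 windows on either strand. A match is a run of letters and was not shown to be a bound site.

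Cells were then grouped by whether they held at least 3 markers of a list, which lets a cell be in more than 1 group and depends on its depth. Microglia-marker cells made up 92.8% to 96.4% of GFP- and 59.4% to 75.8% of GFP+ cells, and CAM-marker cells 3.89% to 13.1% and 33.8% to 48.2%. Of the 9 microglia markers, 7 were lower in GFP+ without overlap and 0 higher, so this list does not choose cells alike in both sorts. Among microglia-marker cells Csf1 was at 61.2 to 94.2 CPM in GFP- and 5.71 to 11.2 CPM in GFP+, a gap similar to that over all cells. Restricted to these cells, Csf1 fell by 3.08 on the log2 scale (edgeR adjusted p = 4.35e-05), Csf3r by 1.10 (0.00104) and Csf2rb2 by 0.63 (0.00420), and Csf1r had -0.25 (0.152). Csf1 in CAM-marker cells was low in both sorts, at 1.95 to 21.9 CPM in GFP- and 4.44 to 5.12 CPM in GFP+. Csf3r in CAM-marker cells was at 37.1 to 91.9 CPM in GFP- and 58.2 to 88.1 CPM in GFP+, and these ranges overlapped. Csf1r in CAM-marker cells was at 1306 to 1604 CPM and 1329 to 1715 CPM, also with overlap, whereas microglia-marker cells ranged from 1900 to 2412 CPM in GFP- and 1220 to 1838 CPM in GFP+. Summed CAM markers were higher in every GFP+ than in every GFP- library. Of the 8 markers, 2 (Mrc1 and Ms4a7) were higher and 1 (Cd163) lower without overlap, and 5 overlapped. Their part in the sort differences of these genes was not tested beyond this split.

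Cells of blood types that remained in the sorts held these receptors at their own levels. Neutrophil-marker cells numbered 2 to 20 in GFP- and 0 to 25 in GFP+ libraries, and summed neutrophil markers ran from 57.2 to 5962 CPM and from 0.825 to 3265 CPM. Csf3r was at 445 CPM in the 20 such cells of the GFP- library with the most, at 732 CPM in the 25 of the GFP+ library with the most, and at 2743 CPM (2267 to 3290) in 24 PBMCs. They held at most 4.10% of the Csf3r UMIs of a GFP- library and at most 9.46% of a GFP+ library. Csf1 was at 61.0 CPM (8 UMIs) in the 25 such cells of the GFP+ library with the most. The Csf3r difference was as large without cells of other types, at -1.01 on the log2 scale (edgeR adjusted p = 0.00189). Naive microglia also carried neutrophil transcripts, at 9229 CPM summed over 9 markers, and Csf3r in its microglia-marker cells was at 195 CPM (167 to 225).

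**Figure D3:**
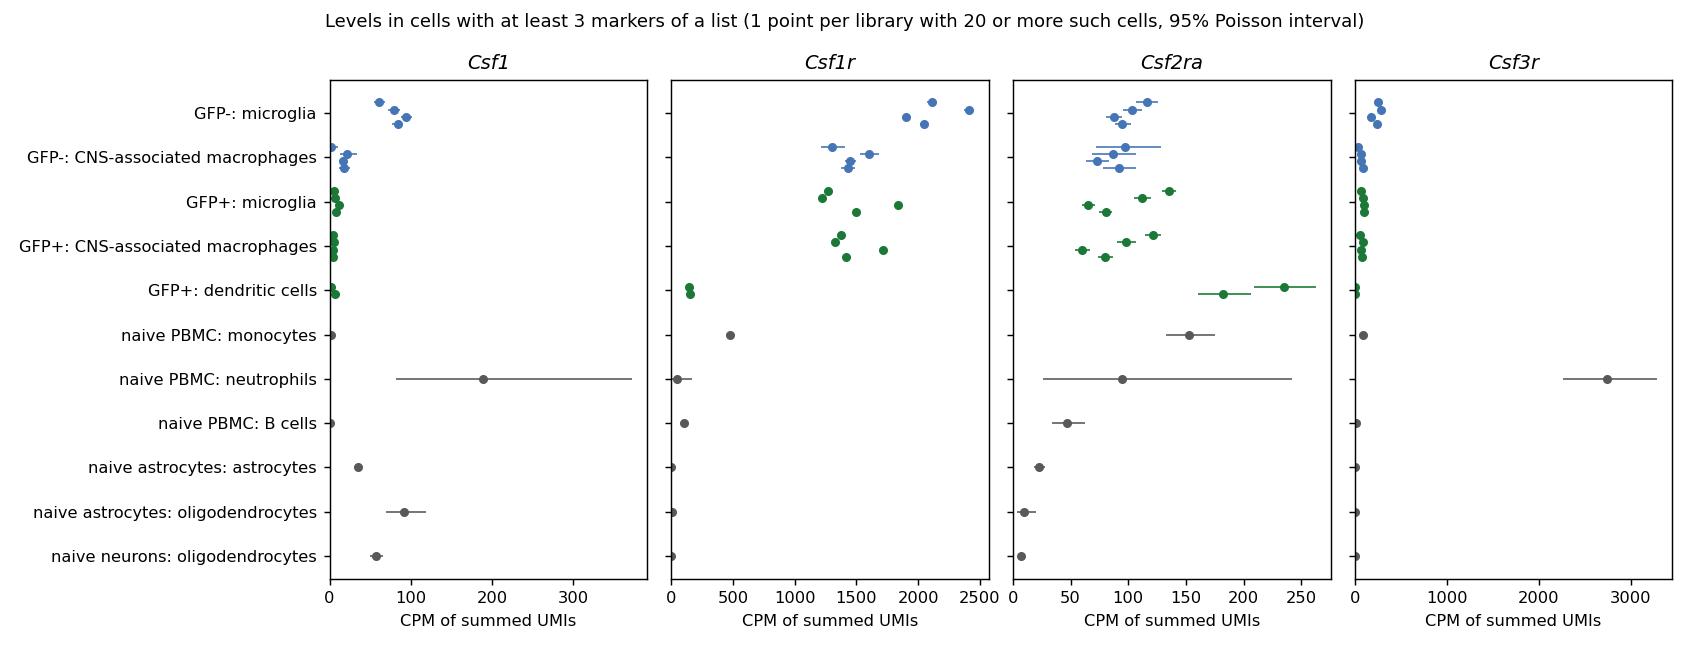
Csf1, Csf1r, Csf2ra and Csf3r in CPM (horizontal axes from 0) in cells with at least 3 markers of the list named on each row. Each point is 1 library with 20 or more such cells, and the line is its 95% Poisson interval. Csf1 is high in the microglia-marker cells of GFP- libraries (61.2 to 94.2 CPM) and at 1.95 to 21.9 CPM in CAM-marker cells of these libraries. Csf3r peaks in the neutrophil-marker PBMCs (2743 CPM).

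A split by depth, chosen after the data were seen, compared cells under 1000 UMIs with cells of 1000 UMIs or more in the 8 treated libraries. The deeper class has no upper limit, so depth was not matched between the sorts within it. In the IV female it held 15952567 UMIs in 2561 GFP+ cells and 4023129 UMIs in 1412 GFP- cells. In the ICV female it held 7939335 UMIs in 1374 GFP+ cells and 6456429 UMIs in 1953 GFP- cells. Csf3r in the shallow cells was at 296 CPM ± 54.5 in GFP+ and 311 CPM ± 59.4 in GFP- (SD, n = 4), with overlap, whereas in the deeper cells it was at 82.1 CPM ± 16.7 and 221 CPM ± 42.7, without overlap. The log2 ratio of shallow to deeper cells was 1.86 ± 0.43 in GFP+ and 0.49 ± 0.22 in GFP-, a difference of 1.36. Csf2rb and Csf2ra had ratios that also did not overlap, with differences of 0.79 and 0.58. For Csf2ra the margin was narrow, with 0.344 in the lowest GFP+ and 0.343 in the highest GFP- library. For all 3 genes the two-sided exact permutation p was 0.0286, the smallest that 4 against 4 libraries can give, and 0.0571 after Benjamini-Hochberg adjustment over the 6 genes compared. The permutation took all 8 libraries as independent, although each mouse gave 1 library to each sort, so its p-values ignore that pairing. Over all genes with UMIs in every class, 39.4% of 10344 had ratios that did not overlap, 30.3% higher and 9.06% lower in GFP+, so 3 of 6 members is close to what genes in general gave.

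Csf2rb in shallow cells was at 101 to 154 CPM in GFP+ and 63.4 to 86.4 CPM in GFP-, above the GFP- libraries in every GFP+ library. In deeper cells it ranged from 38.4 to 84.4 CPM and from 58.2 to 61.4 CPM. The sort difference of Csf1 was present in both depth classes: shallow cells held 16.4 CPM ± 12.3 in GFP+ and 120 CPM ± 27.5 in GFP-, and deeper cells 7.17 ± 1.91 and 70.6 ± 11.8 (SD, n = 4). Its log2 ratio of shallow to deeper cells differed by 0.06 between the sorts (exact permutation p = 0.971). For Csf1r the ratio differed by -0.23 (exact permutation p = 0.114), and for Csf2rb2 by 0.09 (exact permutation p = 0.8). Shallow cells of the GFP+ library of the IV female gave a Csf1 level of 3.56 CPM from 2 UMIs.

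**Figure D4:**
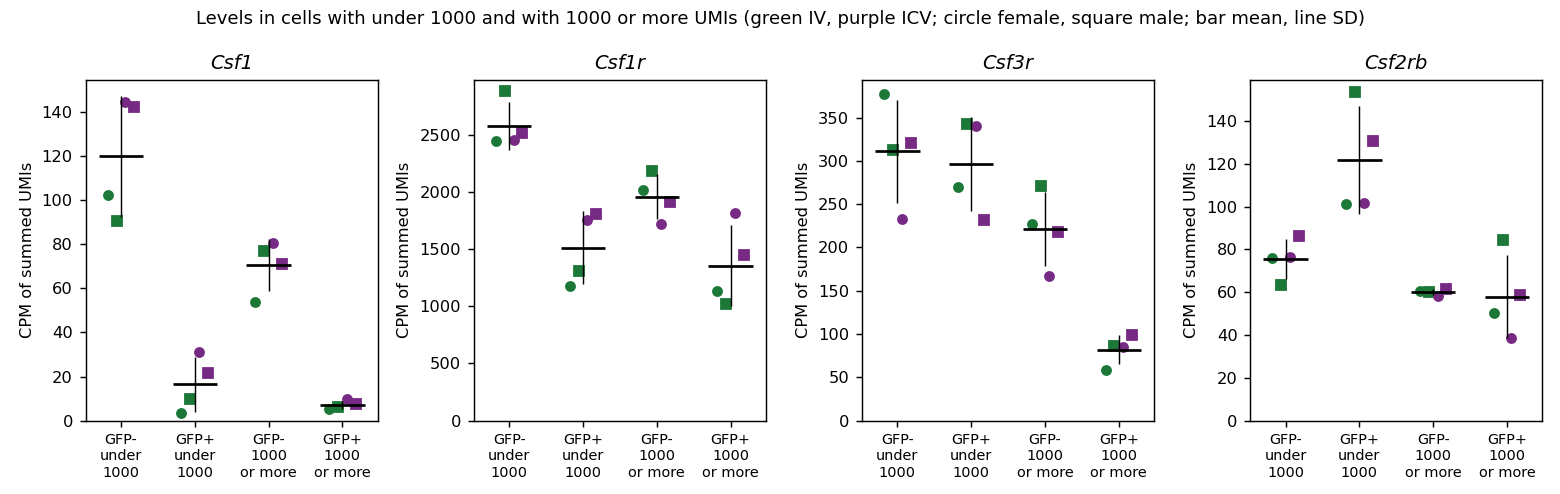
Csf1, Csf1r, Csf3r and Csf2rb in CPM (vertical axes from 0) in cells with under 1000 and with 1000 or more UMIs, by sort. Points are the 8 treated libraries (green IV, purple ICV, circles female, squares male), bars the mean and lines the SD. Csf3r lies at 232 to 342 CPM in shallow and 58.7 to 98.4 CPM in deeper GFP+ cells.

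Route of dosing was compared within each sort, 2 libraries against 2, with the spread taken from all 8 libraries. In GFP+ cells Csf2ra was higher after IV than after ICV dosing: 143 and 134 CPM against 68.0 and 85.3 CPM. Its log2 difference was 0.97 (SE 0.16, edgeR adjusted p = 0.0180), and it was the 1 member called, where 2.36% of all genes were called, 2.19% higher and 0.179% lower after IV dosing. The call was lost in 6 of 20 alternatives, with adjusted p from 0.0616 to 0.544: GFP+ libraries alone, cells thinned to 1000 or to 500 UMIs, cells with at least 3 microglia markers, and without the GFP+ library of either female. Csf1 had -0.72 (adjusted p = 0.136) and Csf1r -0.47 (0.156), both lower after IV dosing and neither called. In GFP- cells no gene was called by edgeR, 974 had an unadjusted p under 0.05 and DESeq2 called 66, and Csf2ra had a log2 difference of 0.17 (adjusted p = 0.770).

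Cells with at least 3 dendritic cell markers moved with the Csf2ra difference by route. There were 82 and 80 of them in the GFP+ libraries of the IV female and male and 1 each in those of the ICV mice, and cells with at least 3 monocyte markers numbered 53, 23, 0 and 0. Csf2ra was at 235 CPM (209 to 263) and 182 CPM (161 to 206) in the dendritic-marker cells of the IV mice, which held 12.9% and 19.4% of the Csf2ra UMIs of their libraries. Csf1r was low in the same cells, at 141 and 153 CPM. Csf2rb was at 53.9 CPM in those of the female and 179 CPM in those of the male. Summed dendritic cell markers ranged from 60.9 to 463 CPM over the GFP+ and from 111 to 170 CPM over the GFP- libraries. Without cells of other types the Csf2ra difference was 0.85 (edgeR adjusted p = 0.0499), and among microglia-marker cells it was 135 and 112 CPM against 65.3 and 80.4 CPM (0.84, adjusted p = 0.0729).

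Whether the sort difference depended on route was tested as an interaction. Csf2ra had the largest of the 6 values, 0.80 (edgeR adjusted p = 0.117), and no member was called, with 1.61% of all genes called, 1.51% more positive after IV dosing and 0.0936% more negative. With the mouse as a block it was 0.82 and passed (adjusted p = 0.0461), where 4.68% of all genes passed, 4.23% in the same direction. In plain CPM the GFP+ minus GFP- difference of Csf2ra was above 0 in both IV mice and below 0 in both ICV mice, and 7.9% of all genes had such opposite signs by route in 1 direction or the other. On the TMM scale, where 8.46% of genes did, Csf2ra did not. The next largest were Csf2rb at 0.61 (0.479) and Csf1r at -0.56 (0.207), neither of which passed with or without the block.

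Recipient sex was compared in the same way, and no member was called. In GFP- cells 4 genes were called (0.034%) and in GFP+ cells none, with 458 genes at an unadjusted p under 0.05 and 3 called by DESeq2. Csf2rb had the largest member difference, with 52.0 and 44.8 CPM in the GFP+ libraries of females and 88.8 and 66.6 CPM in those of males. Its log2 difference was -0.73 (SE 0.21, edgeR adjusted p = 0.946), and the sort by sex interaction was -0.76 (adjusted p = 0.9998), where 3 genes were called (0.0255%). In plain CPM its difference between the sorts was below 0 in both females and above 0 in both males, a pattern of opposite signs by sex that 3.67% of all genes had (4.36% on the TMM scale). The other 5 members differed by at most 0.35 on the log2 scale between the sexes in either sort.

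The other genes of the pathway were taken from 6 lists of 80 genes, of which 73 could be tested between the sorts. In all, 7 were higher in GFP+, 13 lower and 53 not called, with a median log2 fold change of 0.01, as over all genes tested. The 20 called of 73 stand against 32.5% of all genes tested, 16.6% higher and 15.9% lower. Among the other ligands none was called. Csf2, the gene of GM-CSF, had 33 UMIs in a single cell of the GFP+ library of the ICV female and at most 3 UMIs in any other library, Csf3 had at most 2, and Il3 and Il5 had none in the 12 libraries. Kitl, the stem cell factor, was at 30.5 CPM ± 7.35 in GFP+ and 33.4 CPM ± 5.55 in GFP- (SD, n = 4). Among the other receptors Il3ra, the interleukin 3 receptor alpha chain, was at 11.4 and 10.4 CPM, and Ptprz1, an alternative receptor of Il34, was at 1605 CPM in the naive astrocytes and under 20 CPM in every other naive library.

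Of 24 genes of signalling from Csf1r, 2 were higher and 6 lower in GFP+, with a list median of -0.01. Tyrobp, the adaptor DAP12, rose by 0.54 on the log2 scale (2507 CPM ± 216 against 2097 CPM ± 171, SD, n = 4, edgeR adjusted p = 0.0201), and Grb2, an adaptor to Ras, by 0.43 (0.0453). Over all genes tested 32.5% were called, so 8 of 24 lies near that share. Pik3r1, a regulatory subunit of PI3 kinase, was at 178 CPM in GFP+ and 373 in GFP- (-0.80, adjusted p = 0.0218), and Inpp5d, the phosphatase SHIP1, at 245 and 459 CPM (-0.62, 0.00799). The catalytic subunits Pik3cd and Pik3cg fell by 0.57 and 0.44, and the phospholipase Plcg2 by 0.47. Src, which lies outside the naming rule with under 20 CPM in both sorts and is named after its value was seen, fell by 0.45. Syk, Lyn, Ptpn6, Akt1 and Mapk3 were not called, with log2 fold changes of 0.17, 0.13, 0.28, -0.0030 and 0.12.

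Of 15 genes of Jak and Stat signalling from the common beta chain, 1 was higher and 4 lower, where 32.5% of all genes tested were called. Sh2b3, the adaptor LNK, fell by 0.59 on the log2 scale (edgeR adjusted p = 0.00478), the survival gene Bcl2l1 by 0.56 (0.0200), Stat5b by 0.41 (0.0149) and the kinase Tyk2 by 0.33 (0.0414). The last did not hold in cells thinned to 500 UMIs, at 0.06 (adjusted p = 0.885). Stat5a, the closest relative of Stat5b, had 0.13 (0.760), and Socs3, a feedback inhibitor, was at 198 CPM ± 102 and 406 CPM ± 113 (SD, n = 4) and did not pass (-0.73, 0.118).

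Of 17 transcription factors of Csf1r and of the macrophage lineage, 2 were higher and 2 lower, again against 32.5% of all genes. Ets1 was at 36.3 CPM in GFP+ and 89.4 in GFP- (-1.02, edgeR adjusted p = 0.00220), and Fli1 fell by 0.39 (0.0371). Fos, an AP-1 subunit, rose by 0.63 (0.0296). Tfec, a relative of Mitf that lies below 20 CPM and is named after its value was seen, was at 6.79 CPM in GFP+ and 2.998 CPM in GFP- (1.38, 0.0319). Spi1, the gene of PU.1, was at 363 CPM ± 14.6 and 344 CPM ± 41.6 (SD, n = 4) and was not called (0.36, 0.0581). Of 12 cell cycle genes, 2 were higher and 1 lower. Cdk4 rose by 0.67 (0.00270), Cdkn1b, an inhibitor of cyclin-dependent kinases, by 0.46 (0.0407), and Cdk6 fell by 1.30 (0.000587), from 88.5 CPM in GFP- to 29.6 CPM in GFP+. Fos and Cdkn1b, like Grb2 above, overlapped between the sorts in CPM. Of the 20 pathway genes called, Ets1 and Cdk6 were called in all 22 alternatives run, and Grb2, Tyk2, Fli1 and Cdkn1b in 7 to 11 of them.

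**Figure D5:**
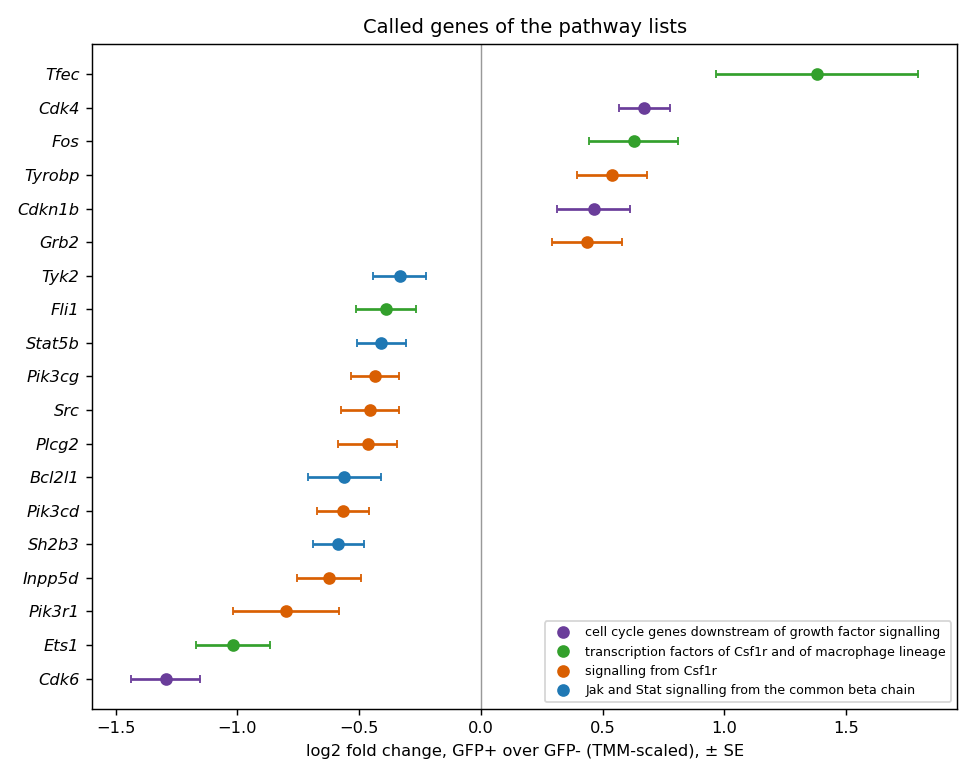
Of the pathway genes called between the sorts, 19 are shown, with the log2 fold change of GFP+ over GFP- (horizontal axis, TMM-scaled) and its SE over 8 libraries, coloured by list. The 13 genes to the left of 0 run from Tyk2 (-0.33) to Cdk6 (-1.30), and the 6 to the right from Grb2 (0.43) to Tfec (1.38).

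The genes most like each member over the 12 libraries were ranked by Pearson's r of log2(CPM + 1) among 9669 genes with at least 20 CPM in a library, as a description over libraries that share mice and differ in cell type. Nearest to Csf1 were Clock (r = 0.935), Ubr4 (0.905) and Secisbp2 (0.905), and to Il34 Foxd1 (0.988), Gper1 (0.977) and Ndufa4l2 (0.977). Foxd1 was at 33.9 CPM in the astrocyte library and at most 0.917 CPM on average in either sort, so its likeness to Il34 rests on 1 library. Nearest to Csf1r were Fam105a (0.998), Ccdc88b (0.997) and Irf8 (0.997), genes near 0 in the neural libraries. Csf2ra had Tap1 (0.985), Rnf213 (0.985) and Ifi35 (0.983), and Csf2rb had Ptprc (0.996), Cd53 (0.995) and Cd300a (0.995). Cd180 was among the 3 nearest of both Csf2rb2 (0.997, with Amz1 and Mctp1) and Csf3r (0.996, with Arhgap45 and Colgalt1). Cd180 was at 59.5 CPM ± 1.06 in GFP+ and 158 CPM ± 33.4 in GFP- (SD, n = 4). When ranked by Spearman's rho instead, 1 of these 21 genes remained among the 3 nearest of its member.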

How the data were processed

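Single cells were profiled with 10x 3′ chemistry in 12 libraries. The deposited values are UMI counts per gene and barcode, made by the authors with Cell Ranger 3.1.0 against mm10; the annotation release is not given in the sources used here. Treated matrices begin at 500 UMIs per barcode, and naive ones hold 2500 barcodes each, with 13.6% to 51.0% kept.

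Barcodes with 200 or more genes and no more than 10% mitochondrial UMIs were kept, doublets were not removed in the main analysis, and raw counts were summed per library. The library is the replicate. Groups follow the labels (GFP+ and GFP-, 4 libraries each, 2 per route and 2 per sex). Each fit used the 8 treated libraries, filterByExpr, TMM factors and edgeR 4.0.16 (R 4.3.3) quasi-likelihood tests, with Benjamini-Hochberg adjusted p-values over 11756 genes and calls at 0.05; DESeq2 1.42.0 was an alternative. The replicate number in the labels is the mouse, so GFP+ and GFP- libraries with the same number came from the same animal. Correlations of same-mouse deviations from the group means were 0.20, -0.28, -0.33 and 0.01. The model without the mouse was the main one, and the mouse entered as a block in an alternative. Libraries of 1 sort came from separate mice, and the naive libraries, 1 each, have no replicate. Intervals are exact 95% Poisson (CPM) or Clopper-Pearson (shares), a count of 0 is given a limit of 3 counts, and both cover counting error only. The fits were tested on simulated counts with 200 genes changed 4-fold, of which 94% were recovered between the sorts, 86.5% between routes in GFP+ and 49.5% for the interaction.

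Positions and overlaps are from GENCODE M21, promoters from RefSeq (GRCm38.p6) and transcript identity from blastn 2.17.0. Python 3.11.15, numpy 2.4.6, scipy 1.17.1, pandas 2.3.3 and matplotlib 3.10.9 were used. Genes named beyond the 7 members are, per pathway list, up to 5 called genes in each direction with the largest change and at least 20 CPM in the higher sort, and the 3 genes most like each member over the libraries. The members and gene lists were chosen with earlier results of these data known. Libraries shared at most 0.348% of the barcodes of the smaller one. Alternatives were other barcode filters, removal of cells of other types and of the deepest cells as possible doublets, thinning, other scalings and filters, DESeq2, the block, single routes or sorts and leaving out each library. A few genes that these rules would name are not reported here.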

Additional observations from a re-analysis of the deposited data

Results flagged for a closer look

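Of 28 groups of 4 libraries tested for a library far from the others, 2 had one, and chance alone gives about 1 in 20. Both concern Il34 in the same GFP+ library, so they are not independent of each other. In CPM the ICV female stood at 2.04 and the others at 0 to 0.304, a gap of 0.8508 of the range, past the 95% critical value of Dixon's test, and its 18 UMIs lay in 5 cells. At 500 UMIs per cell, 2 of 2621 cells of that library held Il34 and none in the other 3 libraries, so the gap was 1 of the range. With 3 libraries tied at 0, any count in the fourth gives this value, so the flag carries no weight of its own.

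Csf2ra moved in opposite directions by route in CPM: GFP+ over GFP- was 1.21 and 1.28 in the IV female and male and 0.768 and 0.901 in the ICV female and male. The test of the difference itself gave an edgeR adjusted p of 0.117424. On the TMM scale the ICV male had 0.08, and dendritic-marker cells, 82 and 80 in the GFP+ libraries of the IV mice and 1 in each of the ICV mice, moved with it. Their part in it was not tested beyond the values without them.

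Csf2rb moved in opposite directions by recipient sex in CPM: GFP+ over GFP- was 0.821 and 0.724 in the IV and ICV females and 1.45 and 1.01 in the IV and ICV males. The sort by sex interaction had an edgeR adjusted p of 0.999751. In the GFP+ library of the IV male, 28.8% of the Csf2rb UMIs came from dendritic-marker cells.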

How the results depend on the processing

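Each comparison rests on 4 mice, with 2 per route and 2 per sex, and 1 mouse of each sex per route, so a difference by route or sex rests on 2 animals a side. Csf1 and Csf2rb2 had few UMIs in GFP+ libraries, Il34 did not pass the filter on low counts, and the naive populations are single libraries. Thinning to 1000 UMIs, cells with at least 3 microglia markers and totals without scaling factors were alternatives chosen after seeing the data.

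Between the sorts, Csf1 stayed called in all 22 alternatives (leaving out 1 library gave -3.27 to -2.91). Csf3r was lost with cells thinned to 500 UMIs (-0.56) and ranged from -1.09 to -0.87 when 1 library was left out. Csf2rb2 was lost in the IV mice alone (-0.54) and the ICV mice alone (-0.60), and without the GFP- library of the IV male it was -0.45, in a range of -0.64 to -0.45 over such omissions. Csf1r, not called in the main analysis, passed in the IV mice alone (-0.66), with cells thinned to 500 UMIs (-0.60), without scaling factors (-0.62) and without the GFP+ library of the ICV female (-0.47, against -0.25 without that of the IV male). Csf2ra passed in the IV mice alone (0.70). The number of members called ranged from 2 to 4 when 1 library was left out. For pathway genes, 20 in the main analysis, it was 7 in the ICV mice alone, 11 with cells thinned to 500 UMIs and 8 to 22 when 1 library was left out, lowest without the GFP- libraries of the IV male (8) and the ICV male (10) and the GFP+ library of the IV male (13). Tyk2 turned to 0.059 with cells thinned to 500 UMIs. The ICV mice or IV mice alone are fewer samples; for the other settings the cause was not tested.

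Between routes in GFP+ cells, the 1 member called, Csf2ra, became 0 with GFP+ libraries alone (0.95), cells thinned to 1000 UMIs (0.93) or 500 UMIs (0.64) and cells with at least 3 microglia markers (0.84), and 0 to 1 when 1 library was left out (0.78 to 1.17), lost without the GFP+ library of either female. With the mouse as replicate block, 1 member, Csf2ra, was called for a sort difference that depends on route, where none was without it. The block kept the same 3 members called between the sorts (Csf1 -3.08, Csf2rb2 -0.55, Csf3r -1.02), and Tyrobp, Grb2, Tyk2 and Cdkn1b lost their calls (edgeR adjusted p = 0.0515 to 0.0915). Ranked by Spearman's rho, 1 of the 21 genes most like a member remained. In the other settings, 258 values that answer a comparison and 761 of single genes kept their direction and their side of the threshold or, for counts and levels, stayed close to the main value. Of the remaining values that answer a comparison, 13 were counted as moved, 10 as weaker and 5 as stronger. Among the remaining values of single genes, 87 were counted as weaker, 1 as stronger and 1 as reversed.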
